A study of Mus musculus with 3 samples.

Results

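The genes described here encode the proteins of the mitochondrial ribosome, the particle that translates the messenger RNAs of mitochondrial DNA. They were taken as every gene whose symbol starts with Mrpl or Mrps in the probe annotation, on probe sets (groups of probes for one transcript) annotated to exactly 1 gene. The choice gave 73 genes of 17097 on the array. Where a gene had several, the one brightest on average over the arrays (by log2) stands for it. By their proteins 48 belong to the large subunit and 24 to the small subunit. The other one, Mrps36, keeps an old name: in mammals its product is a subunit of 2-oxoglutarate dehydrogenase, an enzyme of the citric acid cycle.

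The mitochondrial ribosome makes the core subunits of the respiratory chain and of ATP synthase, which are read from mitochondrial DNA. All of its proteins are encoded in the nucleus, made in the cytosol and imported, and assembled on ribosomal RNA made inside the organelle. Part of them descend from bacterial ribosomal proteins, and others were added in the mitochondrial lineage and have no bacterial counterpart. Hypoxia-inducible factors, the transcription factors that accumulate in low oxygen, are known in other cells to shift metabolism away from respiration.

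Gene expression was measured on 3 single-colour oligonucleotide arrays of mesenchymal progenitors from the bone marrow of C56Bl/6 mice (strain as labelled) aged 8 weeks. The cells, sorted by FACS and called PaS+ in the labels, were kept in MesenCult medium for 7 days at 1% oxygen in all groups and transduced overnight with lentivirus. One array held cells given shHIF-2a, 1 held cells given shHIF-1a and 1 held cells given shCTR, the control short hairpin RNA (shRNA), with RNA taken 4 days after transduction. With 1 array per hairpin there was no replicate, so no difference was tested, no p-value is given, and precision is set by how few arrays there are. In cultures of this kind a lower share of a cell type and less RNA per cell cannot be told apart.

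The targeted genes check the labels. Hif1a (Entrez gene 15251) read 332 on the array labelled HIF-2α, 332 on the array labelled HIF-1α and 352 on the control array, so it was 94.4% of control with either hairpin. Epas1, which encodes HIF-2α (Entrez gene 13819), read 3.21, 9.44 and 5.09 in the same order. The first of these lies under 3.47, the highest reading of any nonspecific control probe set. Since Hif1a was no lower with its own hairpin than with the other, the arrays are called HIF-1α-labelled and HIF-2α-labelled, and every direction rests on those labels. The arrays also differed in ways that touch all genes. The upper quartile over 45141 probe sets was 13.9 on the HIF-2α-labelled array, 13.0 on the HIF-1α-labelled array and 9.81 for the control array. The 12 spiked-in hybridisation control probe sets were dimmer on the HIF-2α-labelled array than on the control array, with a median log2 difference of −1.02 (−1.39 to −0.50), against 0.08 for HIF-1α-labelled minus control. On each array all 10 mesenchymal progenitor markers found there lay above 3.47, with a summed intensity of 1290, 1509 and 1469 on the HIF-2α-labelled, HIF-1α-labelled and control arrays. Of 8 endothelial markers 1 did on each array, with sums of 14.2, 13.2 and 13.4. Of 9 haematopoietic markers 2 did on the HIF-2α-labelled array and 1 on each of the others, the monocyte receptor gene Cd14 at 93.2, 87.8 and 93.4 making up most of sums of 109, 99.0 and 104. Of 4 erythroid markers only the transferrin receptor gene Tfrc, which dividing cells also express, did so, with sums of 157, 157 and 156. Of 4 smooth muscle markers only the actin gene Acta2 did, at 233, 429 and 374, with sums of 237, 434 and 378. The part of these differences between arrays in the results below was not tested.

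Almost all of the family was detected. On every array 71 of 73 genes read above 3.47, the exceptions being Mrps27 and Mrpl47. A gene was called measured where its mean log2 intensity over the 3 arrays was at least 4, which is 16 on the linear scale, and 67 members met that. Probe sets differ in how brightly they report a transcript, so levels are compared here between arrays and never between genes. The 6 brightest probe sets of the family read as follows. Mrpl30, the counterpart of a bacterial large-subunit protein, stood at 265 on the HIF-2α-labelled, 235 on the HIF-1α-labelled and 219.8 for the control array. Mrps14, a protein of the head of the small subunit, stood at 243, 197 and 169 in that order. Both were brightest on the HIF-2α-labelled array and dimmest on the control array. Mrpl39 read 193, 169 and 169, Mrpl42 read 155, 136 and 123, and Mrpl57 read 147, 144 and 136. Mrpl52 gave the same value, 149, on all 3 arrays. Identical values were common: 10 of the 67 measured members (14.9%) were equal on all arrays, against 12.1% of all measured genes. The others were Mrpl20, Mrpl27, Mrpl36, Mrpl50, Mrpl54, Mrps6, Mrps7, Mrps16 and Mrps24. How these equal values arose was not tested.

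At the dim end 6 members fell short of the minimum and enter no count. Mrpl1, which forms the stalk where spent transfer RNA leaves the ribosome, lay just under it, at 23.9, 14.7 and 10.2 on the HIF-2α-labelled, HIF-1α-labelled and control arrays. Mrpl37 read 17.9, 14.6 and 10.5, Mrpl38 read 13.9, 10.8 and 10.04, and Mrps5 read 7.61, 6.16 and 6.16. All of these were brightest on the HIF-2α-labelled array. Mrps27, an RNA-binding pentatricopeptide repeat protein, read 4.34, 3.02 and 2.03, which puts the HIF-2α-labelled reading at least 1.25-fold above control, with control taken as 3.47. Mrpl47 ran the other way, at 2.61, 2.43 and 3.80, at least 1.09-fold lower on each hairpin array than on the control array. The members just above the minimum were Mrps25 and Mrps11, and Mrps25 is described next.

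**Figure D1:**
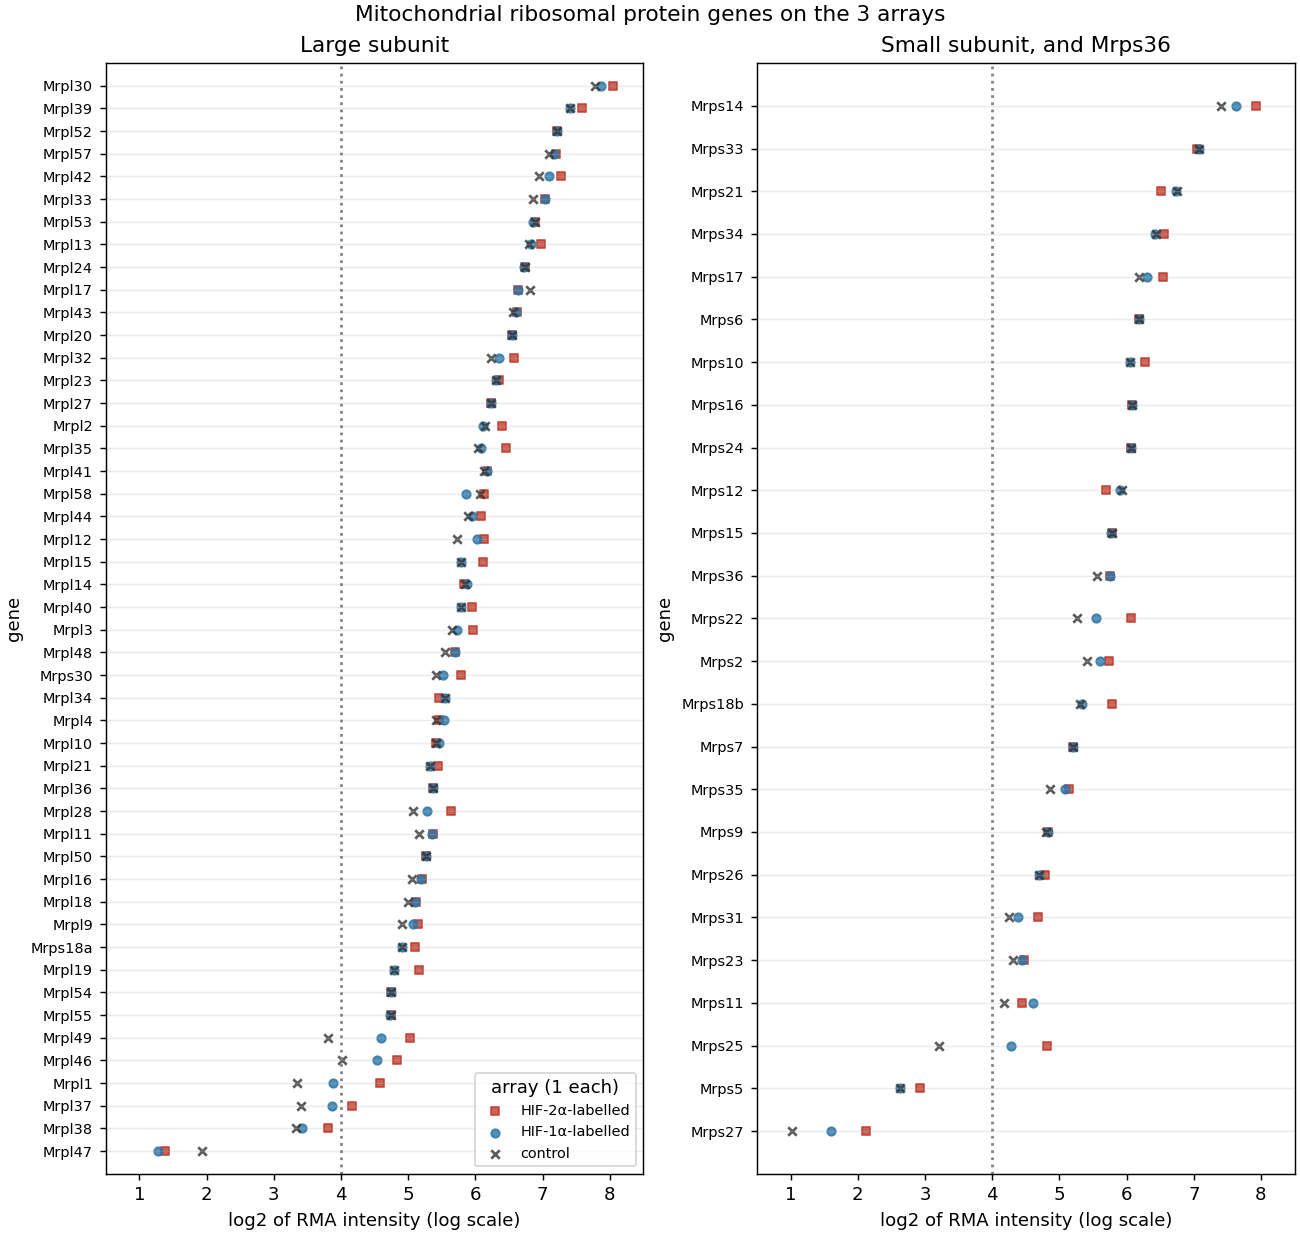
Each row is 1 gene and the horizontal axis is the log2 of the RMA intensity of its probe set on the HIF-2α-labelled (red squares), HIF-1α-labelled (blue circles) and control (grey crosses) arrays, with the large subunit on the left and the small subunit with Mrps36 on the right. The dotted line marks the minimum of 4, symbols that coincide hide each other, and the row order follows probe brightness, which is no order of mRNA amounts. Mrps25, Mrpl49, Mrpl46 and Mrps22 show the widest gaps between the red square and the grey cross among genes right of the line.

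The first comparison sets the HIF-2α-labelled array against control and asks how these progenitors read with the hairpin labelled for HIF-2α. Small differences in the upward direction prevailed among mitochondrial ribosomal protein genes, and 4 of 67 measured members (5.97%) reached 1.5-fold upward: Mrps25, Mrpl49, Mrpl46 and Mrps22. None was 1.5-fold lower. Over all 5813 measured genes 9.94% were that far above control and 1.98% that far below, so the family's share is under the background. The family's median log2 difference was 0.15 (46 above 0, 6 below and 15 equal), beside 0.07 for all measured genes, of which 60.4% were above 0 and 23.3% below. After cyclic loess scaling the median stayed above 0, at 0.03, but the split was 36 above and 31 below, and with each array centred on its own median it was 0.02, with 35 above and 32 below. That centring moved the median of all measured genes by −0.13, to −0.06, and after cyclic loess it was −0.002. No member stayed equal in either setting, so these splits are not comparable with the first. The 1.5-fold calls over all genes numbered 578 higher and 115 lower, or 366 higher and 166 lower after cyclic loess and 382 and 187 after centring.

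Mrps25, a small-subunit protein without a bacterial counterpart whose mutation in humans causes mitochondrial disease, had the highest difference. It read 28.1 on the HIF-2α-labelled, 19.4 on the HIF-1α-labelled and 9.27 for the control array, so its HIF-2α-labelled reading was 3.03-fold that of control. Mrpl49, a large-subunit protein of the mitochondrial lineage, read 32.7, 24.2 and 14.0, which is 2.33-fold. These 2 genes were past 2-fold, which 3.01% of all measured genes were in that direction. Both read under 16 on control, so they passed the minimum only through the arrays on which they were high, and their calls give no support for a difference of the family. The same held for 119 of the 175 genes past 2-fold over the whole array, and for 240 of the 578 past 1.5-fold. Mrpl46, another large-subunit protein without a bacterial counterpart, read 28.6, 23.3 and 16.2, which is 1.77-fold. Mrps22, a small-subunit protein that is also a human disease gene, read 67.3, 46.6 and 38.2, which is 1.76-fold. All 4 belong to the 26 measured members without a bacterial counterpart and 0 to the 40 with one. This split includes the 2 genes under 16 on control and depends on the limits, so it gives no support for a difference by descent. Mrpl1, which has a counterpart, was 2.35-fold above control but under the minimum, and Mrpl28, which also has one, was 1.47-fold. The control readings of Mrps25, Mrpl49 and Mrpl46 were 9.27, 14.0 and 16.2, in the brightness range where all genes differed most.

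The promoters of these 4 genes are shown with those of Mrpl52 and Mrpl20, the brightest members with equal values on all arrays. The choice rests on the probe set that stands for each gene, and other probe sets did not all give the same. For HIF-2α-labelled minus control a dimmer one of Mrpl52 differed by 0.11 and the second measured one of Mrpl49 by 0.04. Each promoter is printed from 150 bases before to 30 bases after the transcription start of RefSeq (GRCm38.p6), 5′ to 3′ on the gene's strand. Starts were taken as annotated. Whether these cells use them, and whether repeated sequence lies in the windows, was not tested, for Mrpl20 as for the others. Capitals mark matches, on either strand, to 5 short motifs: GCATGCGC for NRF1, CCGGAAG for the ETS factor GABP, AAGATGGC for YY1, and ACGTG and GCGTG for the core of hypoxia response elements.
Mrps25 (chr6:92183994-92184173, minus strand): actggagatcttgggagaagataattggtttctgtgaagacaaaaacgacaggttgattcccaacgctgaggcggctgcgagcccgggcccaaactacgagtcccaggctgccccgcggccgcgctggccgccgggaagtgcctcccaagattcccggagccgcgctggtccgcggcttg
Mrpl49 (chr19:6057726-6057905, minus strand): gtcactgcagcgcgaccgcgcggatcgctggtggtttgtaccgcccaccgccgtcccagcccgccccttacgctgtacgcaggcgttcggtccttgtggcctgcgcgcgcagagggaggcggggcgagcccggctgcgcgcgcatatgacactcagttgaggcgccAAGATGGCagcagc
Mrpl46 (chr7:78783060-78783239, minus strand): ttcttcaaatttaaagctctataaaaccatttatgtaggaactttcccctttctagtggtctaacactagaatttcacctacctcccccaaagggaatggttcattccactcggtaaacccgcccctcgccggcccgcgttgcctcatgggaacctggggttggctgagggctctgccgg
Mrps22 (chr9:98601650-98601829, minus strand): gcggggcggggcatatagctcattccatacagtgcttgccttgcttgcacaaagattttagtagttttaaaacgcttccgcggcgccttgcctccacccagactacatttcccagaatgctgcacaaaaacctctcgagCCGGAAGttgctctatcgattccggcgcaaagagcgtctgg
Mrpl52 (chr14:54426759-54426938, plus strand): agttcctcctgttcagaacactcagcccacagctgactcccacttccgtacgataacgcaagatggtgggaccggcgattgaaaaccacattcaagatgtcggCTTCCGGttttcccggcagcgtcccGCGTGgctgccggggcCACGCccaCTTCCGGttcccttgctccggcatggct
Mrpl20 (chr4:155802728-155802907, plus strand): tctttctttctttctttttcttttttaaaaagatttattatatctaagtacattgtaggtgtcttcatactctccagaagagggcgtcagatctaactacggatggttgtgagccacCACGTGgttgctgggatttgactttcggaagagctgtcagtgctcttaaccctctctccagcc
The 300-base windows of Mrps25 and Mrpl46 held 0 matches, and that of Mrps22 held 1, to the GABP motif 11 bases before the start. In Mrpl49 the YY1 motif began 17 bases after the start, where it holds an ATG, and 2 further matches, to ACGTG and GCGTG, lay upstream of the printed part. Mrpl52 held 5 matches, 2 of them to the GABP motif and 3 to GCGTG, 1 of those upstream of the printed part. Mrpl20 held ACGTG on both strands 33 and 32 bases before the start, in overlapping letters. Over the family 71 windows of 65 genes were found. The GABP motif was in 32.4% of them, against 8.86% of all 32851 promoter windows. The NRF1 motif was in 9.86% against 2.71%, the YY1 motif in 16.9% against 2.75%, ACGTG in 25.4% against 19.6% and GCGTG in 57.7% against 32.4%. The 32851 windows were not matched to the family in base composition or expression. The part of either in these shares was not tested. One base can count toward matches of more than one motif, and a match is a description of the sequence and not a binding site.

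Among the remaining members Mrpl28, a large-subunit protein with a bacterial counterpart, read 49.7 on the HIF-2α-labelled and 33.7 on the control array, 1.47-fold and so just under the limit. Mrps14 was 1.43-fold higher, with the readings given above. Below these came Mrps18b, a divergent relative of a bacterial protein that is counted here as having no direct counterpart, at 54.8 against 39.7, and Mrps31, at 25.7 against 19.0. Mrpl35 read 87.9 against 65.7. Mrpl12, the stalk protein that recruits translation factors, read 69.7 against 53.2, a log2 difference of 0.39. Its neighbours at the stalk base differed less, with Mrpl10 at 42.5 on both arrays and Mrpl11 at 41.3 against 35.8. Near the peptidyl transferase centre, where peptide bonds form, Mrpl2 read 84.6 against 71.0 and Mrpl3 read 62.3 against 50.2, whereas Mrpl27 was equal at 75.01. Along the exit tunnel for the new chain, Mrpl23 read 81.3 against 79.1 and Mrpl24 read 106 on both. Mrpl44, a ribonuclease-like protein that is a human disease gene, read 67.6 against 59.5, and Mrpl32, whose cleavage by a mitochondrial protease precedes its assembly, read 95.2 against 74.98. Mrps30 and Mrps18a, which sit in the large subunit in spite of their names, read 55.1 against 42.5 and 34.4 against 30.1. Mrps36 read 53.9 against 47.4.

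Lower readings on the HIF-2α-labelled array were few and small, and none passed the spread between probe sets of one gene, 0.27 on the log2 scale (pooled SD over 1619 genes with several measured probe sets; a technical spread and not one between cultures). Mrps21 read 90.9 on the HIF-2α-labelled and 108 on the control array, a log2 difference of −0.25. Mrps12, which lies at the decoding centre and bears on the accuracy of translation, read 51.6 against 60.9, a difference of −0.24. Both are small-subunit proteins with a bacterial counterpart. Mrpl17 followed at −0.18, with 99.0 against 112, then Mrpl34 at −0.09, Mrps33 at −0.03 and Mrpl14 at −0.02. In all 21 members (31.3%) exceeded 0.27 upward and 0 downward, beside 27.7% and 7.14% of all measured genes, while 46 of 67 (68.7%) lay within it, beside 65.2% of all measured genes.

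Brightness moved with these differences. Over all genes with a mean log2 of 4 to 5 the median of HIF-2α-labelled minus control was 0.23, and it was 0.09 from 5 to 6, 0.04 from 6 to 7 and 0.00 from 7 to 8. The members' medians in the same ranges were 0.23 (12 genes), 0.16 (27), 0.04 (21) and 0.19 (7). The family thus sat at the level of all genes from 4 to 5 and from 6 to 7, and above it in the other ranges. Of the 4 genes past 1.5-fold, 3 lay in the dimmest range, where 364 of all 1669 genes were as far up. The brightest range rests on 7 genes, with Mrps14 at 0.52, Mrpl42 at 0.33, Mrpl30 at 0.27 and Mrpl39 at 0.19, while Mrpl57 stood at 0.11, Mrpl52 at 0.00 and Mrps33 at −0.03. The part of brightness in the family's median was not tested. With the median of all genes in each range subtracted, a step chosen after the data were seen, the family's median was 0.05, with 40 genes above 0 and 27 below.

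**Figure D2:**
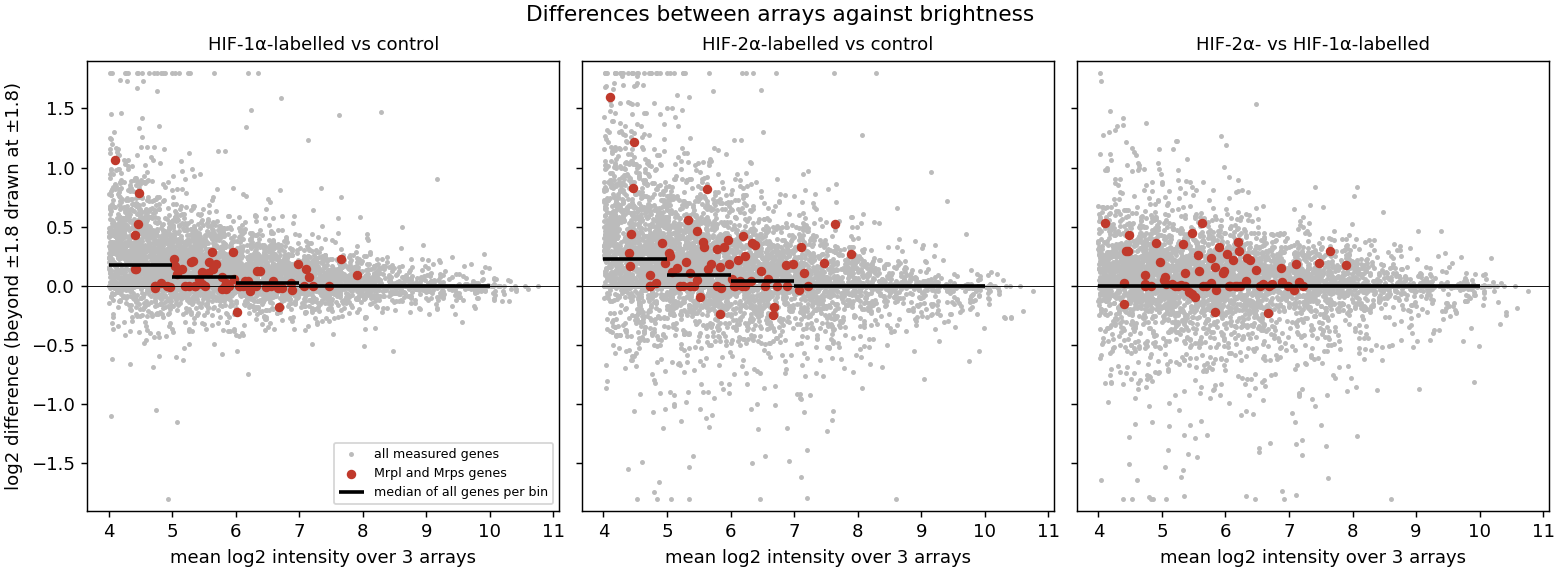
Each point is 1 measured gene, with the mean log2 intensity over the 3 arrays on the horizontal axis and the log2 difference on the vertical axis, for HIF-1α-labelled against control, HIF-2α-labelled against control and HIF-2α-labelled against HIF-1α-labelled. Grey points are all 5813 measured genes, red points the 67 mitochondrial ribosomal protein genes, and black lines the median of all genes in each unit of brightness; points past the axis limits are drawn at the limit. The black lines lie above 0 for dim genes in both comparisons with control, at 0.18 and 0.23 from 4 to 5, and at 0.00 in the comparison between hairpins.

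By subunit the family did not split in this comparison. The 44 measured large-subunit genes had a median of 0.15 (31 above 0, 3 below, 10 equal) and the 22 small-subunit genes 0.15 (14, 3 and 5). By descent the 26 genes without a bacterial counterpart had a median of 0.16 (21 above 0, 1 below, 4 equal), and the 40 with one had 0.11 (24, 5 and 11). Within the small subunit the medians were 0.28 for 9 genes without a counterpart and 0.00 for 13 with one. The 9 genes were dimmer, with a median intensity of 32.7 by the mean over the arrays, against 66.7 for the 13. They include Mrps25, which was under the minimum on control. The part of brightness in these medians was not tested. In the first of these groups, Mrps26 read 27.7 on the HIF-2α-labelled and 26.0 on the control array, Mrps23 read 22.2 against 19.8, Mrps34, which helps keep small-subunit RNA stable, read 94.6 against 86.4, and Mrps35 read 35.3 against 29.1. In the second group 5 of 13 were equal. Mrps17 read 93.0 against 72.5, Mrps2 read 53.3 against 42.5 and Mrps10 read 77.1 against 66.1. Within the large subunit the medians were 0.14 for 17 genes without a counterpart and 0.15 for 27 with one. No difference between these groups was tested.

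**Figure D3:**
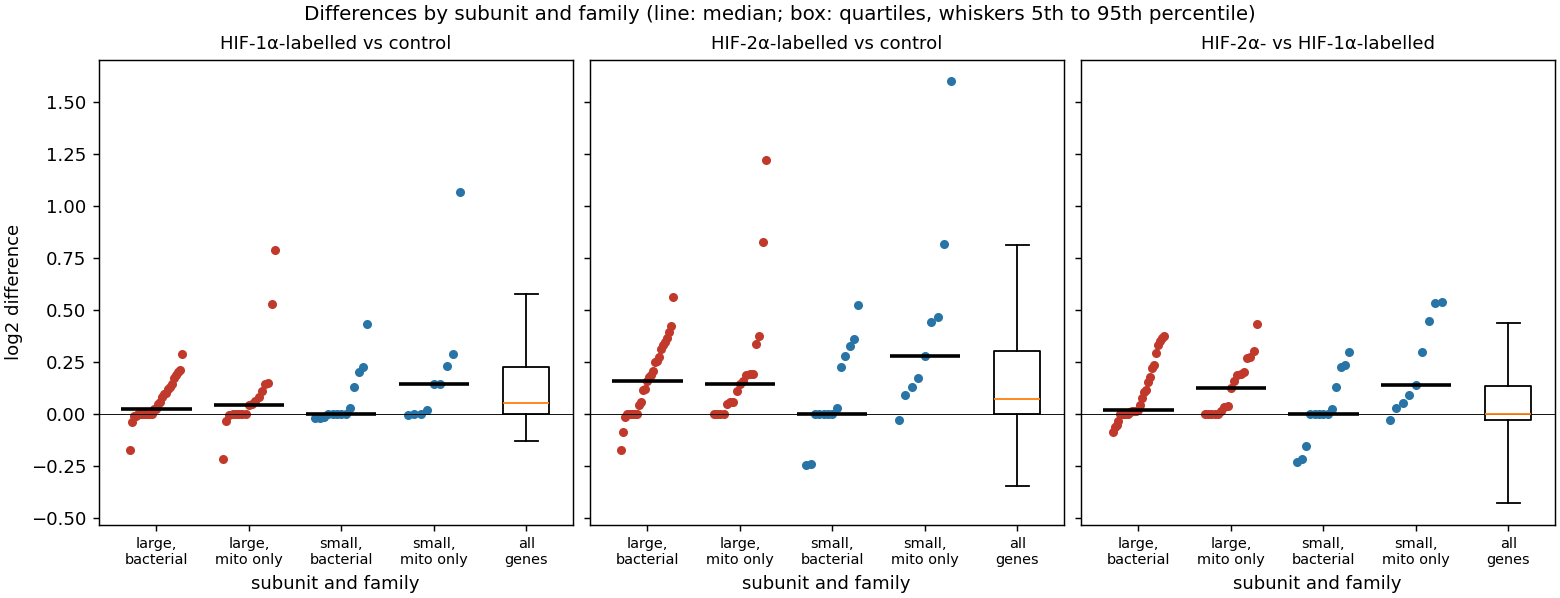
Log2 differences (vertical axis) of the 44 large-subunit (red) and 22 small-subunit (blue) measured members are shown for the 3 comparisons. They are split by whether the protein has a bacterial counterpart ("bacterial") or is counted here as having no direct one ("mito only"). The second label includes Mrps18b, a divergent relative of a bacterial protein. Black lines are group medians, and the box gives the quartiles and median (orange) of all 5813 measured genes with whiskers to the 5th and 95th percentile. For HIF-2α-labelled against control the median of small-subunit genes is 0.28 in the "mito only" group and 0.00 in the "bacterial" group. These groups also differ in brightness, with median intensities of 32.7 and 66.7, and its part was not tested.

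The second comparison, HIF-1α-labelled against control, asks the same question for the hairpin labelled for HIF-1α. Hif1a itself was 94.4% of control with either hairpin. Mitochondrial ribosomal protein genes differed little. The median log2 difference was 0.02 (36 above 0, 11 below, 20 equal), beside 0.05 for all measured genes, of which 59.9% were above 0 and 18.8% below. The family's median turned to −0.03 after cyclic loess and to −0.09 with each array centred, so no direction can be given. The median of all measured genes was then −0.003 and −0.06. Mrps25, at 19.4 on the HIF-1α-labelled and 9.27 for the control array, was 2.09-fold higher, and Mrpl49, at 24.2 against 14.0, was 1.72-fold higher. These were the 2 members of 67 (2.99%) past 1.5-fold, where the background of all measured genes was 4.82% higher and 0.189% lower. As both were under the minimum on control, each passed it only through the hairpin arrays, as did 163 of the 280 genes this far above control over the whole array. Past 2-fold Mrps25 was alone, and the background there was 1.22% higher. After cyclic loess or centring Mrps25 too was under 2-fold.

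The next differences in this comparison were those of Mrpl46, at 0.52, and of Mrps11, a protein of the small-subunit platform, at 0.43 with 24.3 on the HIF-1α-labelled against 18.04 on the control array. Mrps22 followed at 0.29 and Mrpl12, at 64.8 against 53.2, also at 0.29. In the other direction Mrpl58, a peptidyl-tRNA hydrolase that frees stalled ribosomes and is built into the large subunit, read 57.9 on the HIF-1α-labelled against 67.4 on the control array, a difference of −0.22. Mrpl17 followed at −0.18, with 99.0 on the HIF-1α-labelled array as on the HIF-2α-labelled one. Next lowest were Mrpl2 at −0.04, Mrpl53 at −0.03, Mrps15 at −0.02 and Mrps12 at −0.02. Within the spread between probe sets, 0.19 here, lay 54 of 67 members (80.6%), beside 68.3% of all measured genes. Of the 13 others 12 (17.9%) were higher and 1, Mrpl58, was lower, beside 28.6% and 3.13% of all measured genes. Large-subunit genes had a median of 0.03 and small-subunit genes 0.01. Because this comparison shares its control array with the preceding one, likeness between their differences is not counted as a result.

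The third comparison sets the HIF-2α-labelled against the HIF-1α-labelled array and leaves out control. No member was 1.5-fold apart in either direction, where the background of all measured genes was 2.37% higher and 2.96% lower. The family's median log2 difference was 0.03, with 43 genes above 0, 8 below and 16 equal, beside 0.00 for all measured genes, of which 44.3% were above 0 and 28.4% below. The median was 0.02 after cyclic loess and after centring, and the splits were then 35 above and 32 below, and 37 and 30. In both settings the median of all measured genes was −0.02. No member stayed equal, so these splits are not comparable with the first. Without such scaling the median of all genes was 0.00 in every range of brightness. The members' medians were 0.14 from 4 to 5, 0.02 from 5 to 6, 0.01 from 6 to 7 and 0.17 from 7 to 8.

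The highest differences were those of Mrps25 (0.54), Mrps22 (0.53), Mrps18b (0.45), Mrpl49 (0.43), Mrpl35 (0.38) and Mrpl19 (0.36). For Mrps18b the readings were 54.8 on the HIF-2α-labelled and 40.2 on the HIF-1α-labelled array, and control stood at 39.7. For Mrpl35 they were 87.9 and 67.8, and for Mrpl19 they were 35.6 and 27.7, the last of these also the control reading. By the probe sets that stand for them, these 3 genes were thus high on the HIF-2α-labelled array and nearly alike on the other arrays. For Mrpl19 a dimmer probe set, under the minimum at a mean log2 of 3.65, gave another picture. It read 23.9 (HIF-2α-labelled), 13.4 (HIF-1α-labelled) and 6.20 (control), with log2 differences from control of 1.95 and 1.11. The remaining Mrpl19 probe sets read under 3.47 on every array. The lowest differences between the hairpin arrays were those of Mrps21 (−0.23), Mrps12 (−0.22), Mrps11 (−0.15), Mrpl34 (−0.09), Mrpl4 (−0.07) and Mrpl10 (−0.05). Genes without a bacterial counterpart had a median of 0.13 (20 above 0, 1 below, 5 equal), and those with one had 0.01 (23, 7 and 10). In all 39 of 67 members (58.2%) gave their highest reading on the HIF-2α-labelled array, beside 41% of all measured genes. With 0.16 as the spread between probe sets, 22 members (32.8%) were higher by more than that and 2, Mrps21 and Mrps12, were lower, beside 21.2% and 13.6% of all measured genes. Within it lay 43 members (64.2%), beside 65.3% of all.

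Several probe sets report some of these genes, and they did not always give the same value. In 10 members at least 2 probe sets of 1 gene were measured. For Mrpl49 the second one differed by 0.04 for HIF-2α-labelled minus control, at 20.4 against 19.8, where the first differed by 1.22, so the 2.33-fold difference rests on 1 probe set. For Mrpl39 the second probe set gave 0.40 beside 0.19, for Mrpl13 the others gave 0.55 and 0.24 beside 0.18, and for Mrpl3 the second gave 0.38 beside 0.31, all upward. For Mrpl41, Mrpl50, Mrpl52, Mrps15, Mrps23 and Mrps24 every measured probe set lay between −0.01 and 0.17. For Mrps25 the other probe sets of 1 gene were dim. One of these read 5.31 on the HIF-2α-labelled array and 4.88 on each of the others, and another read 1.21 on all arrays. A brighter probe set listed for both Mrps25 and its neighbour Nr2c2 read 53.9 on the HIF-2α-labelled, 59.4 on the HIF-1α-labelled and 46.0 for the control array, so it was above control on both hairpin arrays, by log2 differences of 0.23 and 0.37. The other 2 probe sets listed for both genes were dim, at 9.07, 7.61 and 2.90, the last under 3.47, and at 6.27, 6.27 and 4.64 in the same order. None of these 3 can be assigned to 1 gene. With the mean of all probe sets of each gene, 46 members were measured and none was past 2-fold.

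Proteins of the mitochondrial ribosome with other names, and genes that serve it, were read from lists. Over all measured genes 9.94% were past 1.5-fold higher for HIF-2α-labelled against control and 4.82% for HIF-1α-labelled against control, and 60.4% and 59.9% were above 0, which is the background for the small lists below. Of 4 such ribosomal proteins, 1 was past 1.5-fold for HIF-2α-labelled against control: Ptcd3, a small-subunit protein of the pentatricopeptide repeat class, at 84.4 on the HIF-2α-labelled, 70.4 on the HIF-1α-labelled and 51.1 for the control array. Its log2 differences from control were 0.72 and 0.46 on the HIF-2α-labelled and HIF-1α-labelled arrays. Chchd1 differed by 0.21 and 0.03, Gadd45gip1 by 0.11 and −0.12, and Dap3, which binds GTP in the small subunit, by 0.02 and −0.11. Of 7 measured assembly factors none was past 1.5-fold. On the HIF-2α-labelled array they ran from 0.24 for Mterf3 and 0.22 for Malsu1 down to 0.01 for Rbfa and −0.10 for Noa1, with a median of 0.18. For HIF-1α-labelled against control it was 0.02, with Malsu1 at 0.13 and Fastkd2 at 0.10 highest and Noa1 at −0.20 lowest.

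Translation factors had 6 measured members, none past 1.5-fold. Mtif2, which places the initiator transfer RNA, differed from control by 0.43 on the HIF-2α-labelled and 0.34 on the HIF-1α-labelled array. Mrrf, which recycles ribosomes, differed by 0.32 and 0.20. The elongation factor genes showed 0.23 and 0.00 for Tufm, 0.09 and 0.09 for Tsfm and 0.07 and 0.00 for Gfm1. Lrpprc, which stabilises mitochondrial messenger RNA, differed by 0.30 and −0.14, the only one of the 6 below control on either array. The medians were 0.27 and 0.04. Of 4 measured mitochondrial aminoacyl-tRNA synthetases, which load transfer RNA with amino acids, Nars2 differed by 0.52 and 0.20, Rars2 by 0.43 and 0.43, Lars2 by 0.30 and 0.42 and Iars2 by −0.06 on both. Iars2, Lars2 and Nars2 lay just above the minimum, and Nars2 and Lars2 read 14.2 and 13.5 on the control array.

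Genes that copy and transcribe mitochondrial DNA, which also holds the ribosomal RNA genes, had 5 measured members, all above control on the HIF-2α-labelled array, as 60.4% of all measured genes were, and none past 1.5-fold. Ssbp1, which coats single-stranded mitochondrial DNA, read 189 on the HIF-2α-labelled, 162 on the HIF-1α-labelled and 142 for the control array, with differences from control of 0.42 and 0.19. Polg, the replicating polymerase, differed by 0.38 and 0.21, Polrmt, the RNA polymerase, by 0.31 and 0.15, Tfb2m by 0.12 and 0.12 and Tfam by 0.10 and −0.06. The medians were 0.31 and 0.15. Of 6 measured regulators of nuclear genes for mitochondria, Pprc1, a coactivator of the PGC-1 family, was past 1.5-fold on both hairpin arrays, at 26.6 on the HIF-2α-labelled, 21.3 on the HIF-1α-labelled and 14.2 for the control array. Its differences from control were 0.91 and 0.59, and it too passed the minimum only through the hairpin arrays. Myc, which drives ribosome and mitochondrial gene expression in growing cells, differed by 0.51 and 0.29, with readings of 78.9, 67.7 and 55.2. Yy1 differed by 0.33 and 0.06, Gabpa by 0.20 and 0.09, and Esrra was equal on all arrays. Mxi1, an antagonist of MYC and a known target of hypoxia-inducible factors, was the one below control, by −0.32 and −0.17, at 122, 136 and 153.

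**Figure D4:**
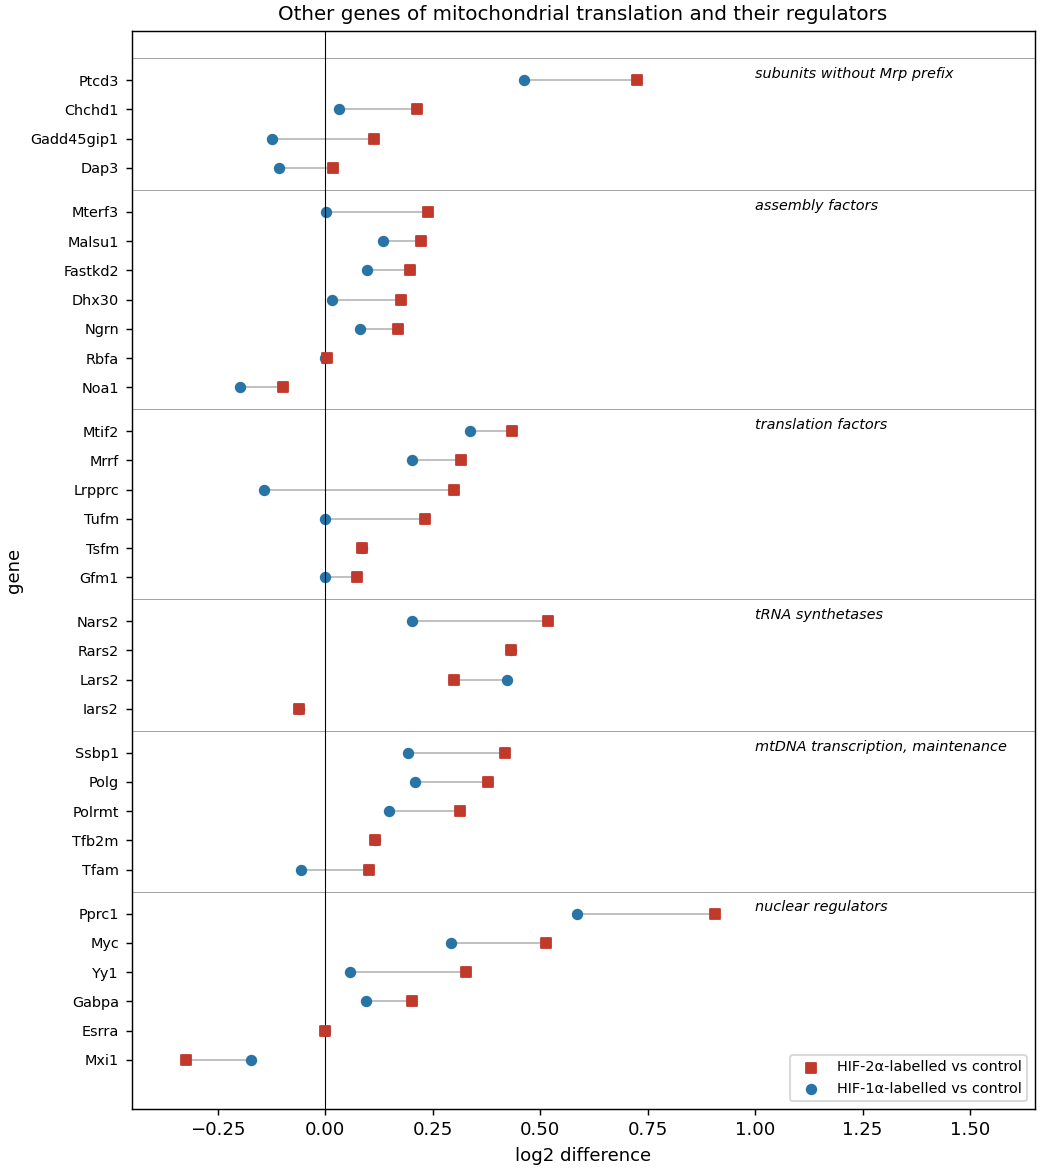
Each row is 1 measured gene of the 6 lists, with its log2 difference from control on the HIF-2α-labelled array (red squares) and on the HIF-1α-labelled array (blue circles), 1 array each and joined by a grey line. The red squares farthest to the right are those of Pprc1 at 0.91, Ptcd3 at 0.72, Nars2 at 0.52 and Myc at 0.51, and that of Mxi1 is the lowest, at −0.32.

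Set beside other gene families, the mitochondrial ribosomal protein genes had the highest of 3 medians for HIF-2α-labelled against control, 0.15, where 67 measured nuclear genes of the respiratory chain and ATP synthase had 0.01 and 64 measured cytosolic ribosomal protein genes had 0.00. The counts were 46 above 0 and 6 below for the mitochondrial ribosome, 39 and 10 for the respiratory chain and 15 and 31 for the cytosolic ribosome. For HIF-1α-labelled against control the medians were 0.02, 0.00 and 0.00 in the same order. Between the hairpin arrays they were 0.03, 0.00 and 0.00. The families differ in probe brightness, with median intensities on the control array of 55.2, 195 and 866, and in the comparisons with control the median difference of all genes was smaller in brighter ranges. No difference between the families was tested.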

How the data were processed

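The series holds 3 arrays, grouped by the hairpin in the labels' titles, 1 array a group. Per the submitters' processing notes the authors used RMA, with version and settings not stated in the sources at hand. The deposited values are linear intensities, from 0.63 to 1747, not log2 values. RMA as usually run summarises the probes of a probe set over all arrays together, which can give equal values on several arrays. Precision is limited by the number of arrays, and signal over background stands in for depth: the highest of 23 nonspecific control probe sets read 3.47.

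Deposited intensities were put on the log2 scale unscaled, using Python 3.11.15 and pandas 2.3.3. Of 45141 probe sets 28898 had 1 gene in the platform table, 551 had several, 15588 had none listed and 104 were controls. All 73 members matched RefSeq (GRCm38.p6) by Entrez identifier with the same symbol. A gene was measured at a mean log2 of at least 4 over the arrays. Differences were counted at 1.5-fold and 2-fold, with no test and no p-value. Counting was tested on simulated data, with changes larger than the 2-fold limit and noise smaller than the spread between probe sets. That checks the counting itself and not how reliable the counts are. Alternatives were minimums of 3, 6 and none, cyclic loess in limma 3.58.1, centring, the mean of all probe sets, leaving out probe sets shared between transcripts, 16 added before log2, and, chosen after seeing the data, subtraction of the median of all genes of like brightness.

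Members and lists were chosen with earlier results of these data known. Genes were named by rule: those past 1.5-fold, the 6 highest and 6 lowest in each comparison, the 6 brightest and 6 dimmest, Mrps30, Mrps18a and Mrps36, and the 2 highest and lowest of each list; others illustrate roles and were chosen with their values known.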

Additional observations from a re-analysis of the deposited data

How the results depend on the processing

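No paired analysis was possible because each group holds 1 array and the labels give no replicate numbers, and for the same reason no replicate could be left out. The median difference of the family ranged from −0.09 to 0.09 for HIF-1α-labelled against control, from 0.02 to 0.18 for HIF-2α-labelled against control and from 0.02 to 0.08 between the hairpin arrays, so for the first of these the sign changed. Counts past 1.5-fold and 2-fold rest on 1 to 4 genes. At a minimum of 6 on the log2 scale (28 members) 0 members were past 1.5-fold and 0 past 2-fold on either hairpin array. Of all 2511 genes then measured, 73 were past 1.5-fold upward for HIF-2α-labelled against control and 23 for HIF-1α-labelled against control. Without any minimum 7 of 73 members were past 1.5-fold and 4 past 2-fold upward for HIF-2α-labelled against control. Over all 17097 genes 2062 and 890 were. The members added past 2-fold were Mrpl1 and Mrps27, the latter under 3.47 on control. In that setting 1 member was past 1.5-fold downward for HIF-1α-labelled against control, beside 446 of all genes. Between the hairpin arrays 1 was past 1.5-fold upward, beside 468 of all genes. At a minimum of 3 it was also 1, beside 242 of 7239 genes. For HIF-1α-labelled against control, the count past 2-fold was 0 after cyclic loess and after centring, the counts past both limits were 0 with the mean of all probe sets and with 16 added, and without shared probe sets 1 gene was past 1.5-fold. For HIF-2α-labelled against control, the count past 2-fold was 0 with the mean of all probe sets and with 16 added, and 1 without shared probe sets. Mrps25 ranged from 0.80 to 1.60 and Mrpl49 from 0.63 to 1.22 on the HIF-2α-labelled array against control, and from 0.49 to 1.06 and from 0.41 to 0.79 on the HIF-1α-labelled array. Over all measured genes the number 1.5-fold higher ranged from 23 to 1460 for HIF-1α-labelled against control (280 in the main setting) and from 73 to 2062 for HIF-2α-labelled against control (578), lowest at a minimum of 6 and highest with none. Minimums change how many genes are counted, and other causes were not tested.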
